A study of Mus musculus with 21 samples.

Results

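E2F proteins are transcription factors that bind short GC-rich sites in the promoters of genes for DNA synthesis and cell division. *E2f1*, *E2f2* and *E2f3* encode the classical activators, which the retinoblastoma family of pocket proteins holds in check until cyclin-dependent kinases phosphorylate the pocket proteins late in G1. *E2f4* and *E2f5* encode factors that mostly act with the pocket proteins p107 and p130 to repress the same genes in resting cells. *E2f6* encodes a repressor without a pocket protein domain that works with Polycomb proteins, and *E2f7* and *E2f8* encode atypical repressors that bind DNA without a DP partner. In blood cell development, *E2f1* and *E2f2* are known for controlling the proliferation of progenitors and lymphocytes.

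The family was examined in *Ebf1*-deficient lymphoid progenitors (LPs), a mouse cell line, and consists of all 8 genes named *E2f1* to *E2f8* among the 55421 genes of the QuantSeq table. Every member was found, and all 8 passed the filter on low values (more than 1 TPM on average). The genes were chosen by name, whereas the peaks were chosen by their nearest gene, an E2F gene for 1 of 5898 Zbtb1 peaks and for 3 of 6077 Cbfa2t3 peaks. The lists name no gene for 463 and 426 of these peaks. QuantSeq, which reads mRNA near its 3′ end, was done on 15 libraries of 5 conditions with 3 replicates each. All cells were *Ebf1*-deficient LPs that carried Cas9-GFP and received a pool of 2 sgRNAs in a retroviral vector, and were sorted 5 days later for GFP and the hNGFR marker of that vector, as a mixed population and not as clones. The sgRNAs were directed at luciferase (sgControl), at the adaptor gene *Lmo2*, at the zinc finger gene *Zbtb1*, or at *Cbfa2t2* or *Cbfa2t3*, which encode corepressors of the ETO family. ChIP-seq had been done on *Ebf1*-deficient LPs without Notch stimulation, with 2 replicates each for Zbtb1 and Cbfa2t3. The labels do not say whether the replicates were separate cultures, and the study's methods call those of QuantSeq biologically independent.

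The libraries held 1705416 to 2095447 reads, and 3 reads, the smallest amount taken as measurable, were worth 1.43 to 1.76 TPM. The unit called TPM by the authors was a CPM, that is reads scaled to the same total in every library, without division by gene length. Of the 10 lymphoid progenitor markers, 1 (*Cd79a*) was at 0 in all libraries, and *Rag1*, *Vpreb1* and *Igll1* averaged at most 3.27, 2.30 and 0.528 TPM in any condition. *Il7r* and *Flt3* averaged 134 to 206 and 213 to 267 TPM over the conditions. Of the 12 OP9 stromal markers, 2 (*Col3a1* and *Postn*) were at 0 in every library, and *Pdgfrb* and *Timp3* averaged up to 7.19 and 4.45 TPM. The mRNA of no targeted gene was lower under its own sgRNA past the threshold: *Zbtb1* mRNA was higher in the libraries labelled sgZbtb1 (94.4 to 113 TPM against 55.7 to 66.6 TPM in sgControl; limma adjusted p = 0.00102). *Cbfa2t3* mRNA was higher in those labelled sgCbfa2t3 (340 to 364 TPM against 172 to 210 TPM; limma adjusted p = 1.67e-07). *Cbfa2t2* (limma adjusted p = 0.412) and *Lmo2* (limma adjusted p = 0.956) did not differ past the threshold under their own sgRNA. Reads near the 3′ end can be counted whether or not an sgRNA site elsewhere in the gene was cut, so that these levels do not check the editing. The study's own check of the sgRNAs was the loss of the Lmo2, Zbtb1 and Cbfa2t3 proteins, seen by immunoblotting of sorted cells. It describes no blot of the Cbfa2t2 protein, so that sgCbfa2t2 has no such check. These blots are not part of the files analysed here. All directions below are those of the libraries labelled with an sgRNA.

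*E2f2* was the member with a peak of both factors, and both peaks lay over the same stretch of its gene. Among peaks with an E2F gene named as the nearest gene, this was the one place where the lists overlap. The overlap ran over 272 bases in the first intron of the longer *E2f2* transcript.

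The Zbtb1 peak at *E2f2* had a normalized peak score of 423.2, which placed it at rank 43 of 5898, at 15.1 times the median score of 28.0. The Cbfa2t3 peak had a score of 360.6, at rank 27 of 6077 and 10.9 times the median of 33.2. The overlap covered 73.3% of the first and 71.8% of the second peak. Of the Zbtb1 peaks on the main chromosomes, 1481 (25.1%) overlapped a Cbfa2t3 peak, and the *E2f2* peak ranked 25 among them by its Zbtb1 score and 14 by its Cbfa2t3 score. Each list holds peaks called in both replicates, with 1 score per peak, so that these values carry no replicate error.

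**Figure D1:**
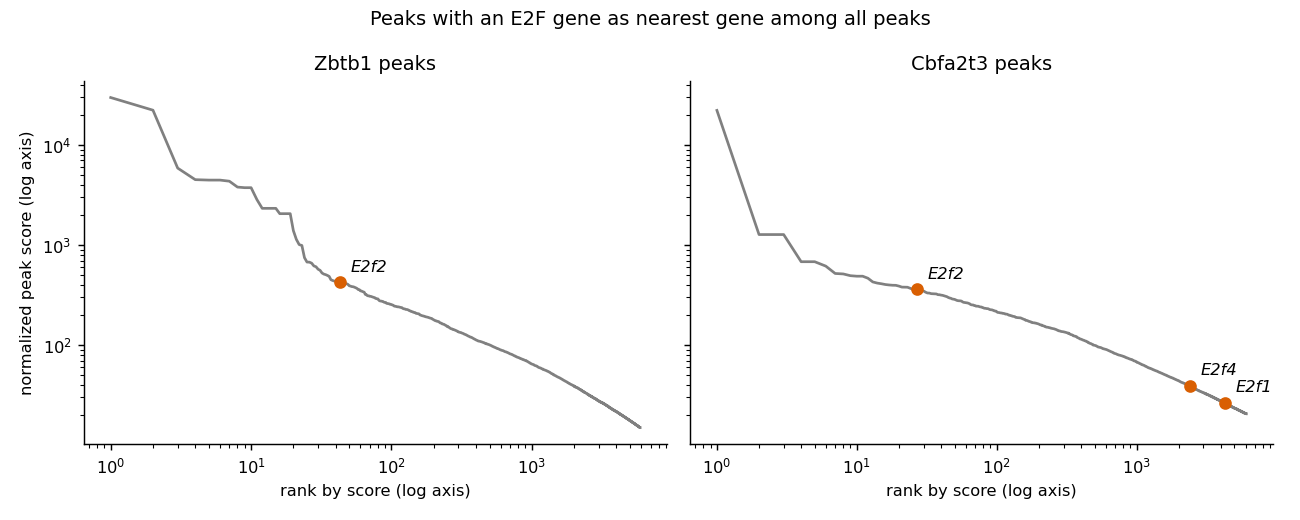
Normalized peak score (log axis) against rank (log axis) for all Zbtb1 peaks (left) and all Cbfa2t3 peaks (right), as grey lines, with points for the peaks whose nearest gene is an E2F gene. *E2f2* stands near the top of both lists, at 423.2 and 360.6, whereas in the Cbfa2t3 list *E2f4*, at 39.0, stands a little above the median of 33.2 and *E2f1*, at 26.3, below it.

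RefSeq gives *E2f2* 2 start sites, and the peaks lay between them. The centre of the Zbtb1 peak was 5.36 kb and that of the Cbfa2t3 peak 5.47 kb after the start of the gene in GENCODE (136172394), and the longer RefSeq transcript starts at 136172274. The shorter transcript starts at 136180782. Both transcripts end in the same last exon, so that reads near the 3′ end could not tell them apart. Downstream of the first start site, the 300-base promoter window held 3 matches of the E2F core TTNNCGC, searched on both strands, all within the first 50 transcribed bases. The last of these bases, with 2 overlapping matches in capitals, are shown because such sites mark promoters that E2F proteins themselves can bind.

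*E2f2* bases 21 to 50 after the first start site (chr4:136172294-136172323, plus strand, GRCm38, the assembly behind mm10): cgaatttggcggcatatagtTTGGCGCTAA

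The E2F core was present in 20.2% of the 32851 RefSeq promoter windows. Of the E2F family, 6 genes had such windows. *E2f3* held 3 matches in its first window and none in its second, *E2f7* held 4, *E2f6* and *E2f8* held 1 each and *E2f1* none. *E2f1* and *E2f8* each have another RefSeq start site that had no window and was not searched. In the window of the second *E2f2* start site there was no match. *E2f4* and *E2f5* had no such window and were not searched.

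**Figure D2:**
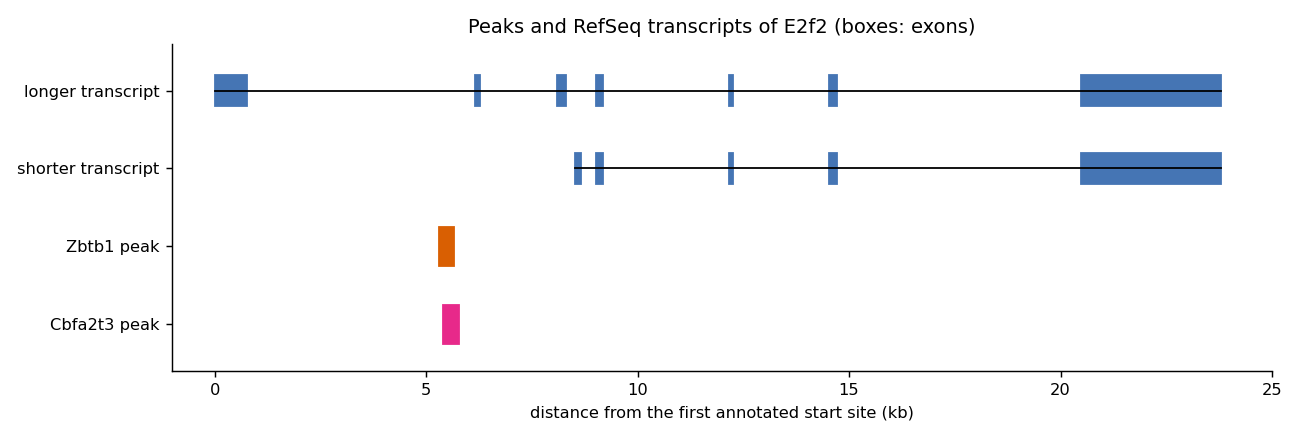
Map of *E2f2* drawn to scale, with the distance from the first annotated start site in kb on the horizontal axis, exons as boxes and the Zbtb1 and Cbfa2t3 peaks as coloured bars. Both peaks lie in the first intron of the longer transcript and before the start of the shorter one, and overlap by 272 bases.

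*E2f2* mRNA differed between conditions more than that of any other E2F gene. *E2f2* (ENSMUSG00000018983, chr4:136172394-136196057, plus strand) was at 76.1, 74.1 and 83.3 TPM in the sgControl libraries. In those labelled sgCbfa2t3 it was at 153.3, 143.3 and 152.9 TPM. In those labelled sgZbtb1 it was at 53.6, 52.1 and 40.3 TPM. The sgCbfa2t3 libraries were all above, and the sgZbtb1 libraries all below, every sgControl library. In sgCbfa2t2-labelled libraries *E2f2* measured 60.7, 53.4 and 71.5 TPM, again below all sgControl libraries, and in sgLmo2-labelled ones 65.6, 80.2 and 77.8 TPM, which overlapped sgControl. Of all genes tested, 15.8% did not overlap with sgControl in sgCbfa2t3, 22.9% in sgZbtb1 and 13.7% in sgCbfa2t2. These values rest on 251 to 286 reads per library in sgCbfa2t3, 128 to 142 in sgControl and 82 to 109 in sgZbtb1.

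**Figure D3:**
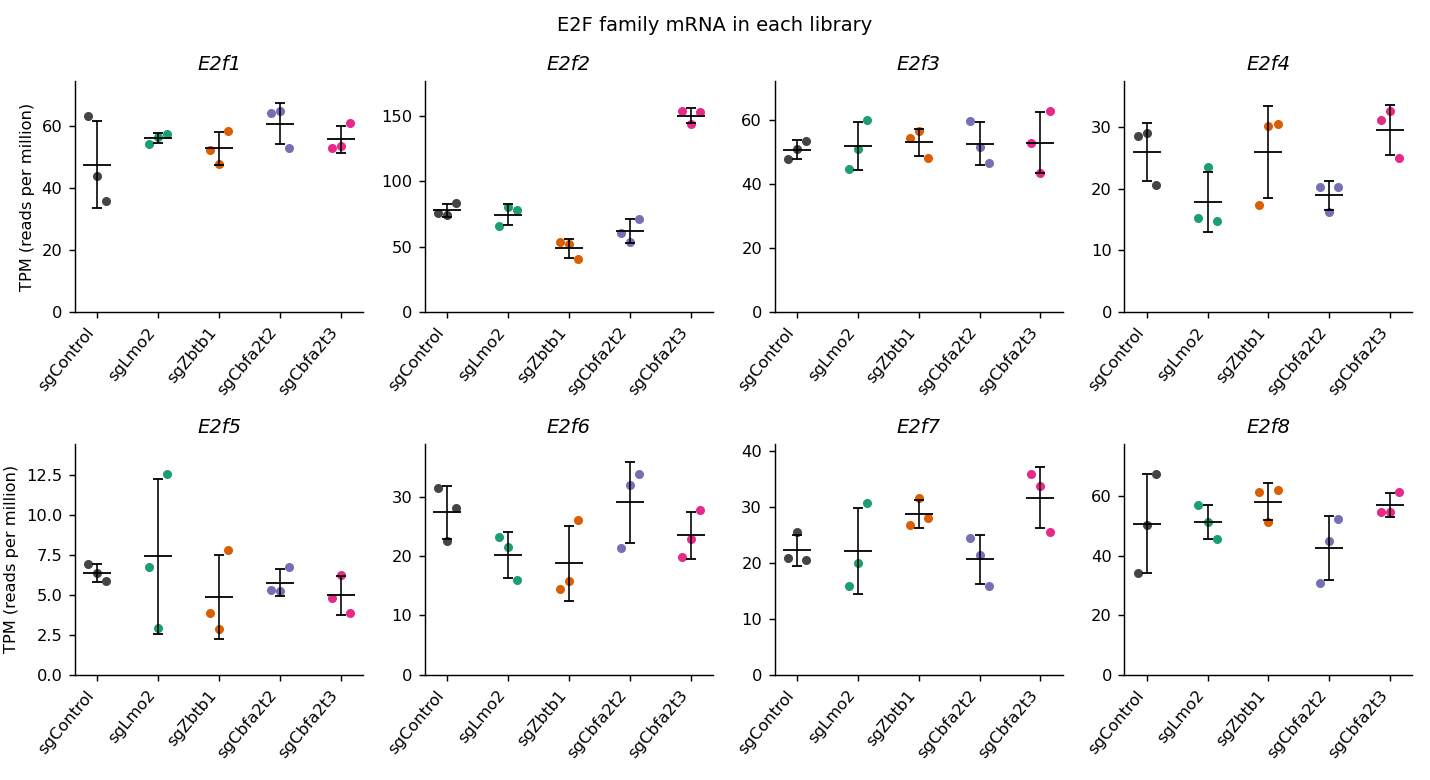
TPM (reads scaled to the library total) of the 8 E2F genes in each of the 15 libraries, 1 panel per gene with axes from 0, points for libraries, and the mean and SD (n = 3) of each condition in black. *E2f2* in the libraries labelled sgCbfa2t3 lies between 143.3 and 153.3 TPM, above all other libraries, where it reaches at most 83.3 TPM.

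*E2f2* rose from 77.8 ± 4.83 TPM in sgControl to 149.9 ± 5.66 TPM in the libraries labelled sgCbfa2t3 (SD, n = 3 each), 1.93 times the level. Its log2 fold change, on the log2(TPM + 1) scale, was 0.94 (standard error of the fit, SE, 0.15, limma adjusted p = 6.21e-05), and by its p-value it ranked 6 of the 11554 genes tested. The 95% interval of 0.64 to 1.24 included the log2 fold change of 1 that the study required of a differentially expressed gene, and *E2f2* stood just under it. *E2f2* fell to 48.7 ± 7.32 TPM (SD, n = 3) in the libraries labelled sgZbtb1, 0.626 times the sgControl level (log2 fold change -0.68, SE 0.15, limma adjusted p = 0.00209). At 61.9 ± 9.08 TPM (SD, n = 3) in sgCbfa2t2, *E2f2* did not pass the adjusted threshold (log2 fold change -0.33, limma adjusted p = 0.467). The same held at 74.5 ± 7.82 TPM (SD, n = 3) in sgLmo2, with a log2 fold change of -0.07 and an interval of -0.36 to 0.23 (limma adjusted p = 0.979). The exact two-sided permutation test of *E2f2* gave p = 0.1 for sgCbfa2t3, sgZbtb1 and sgCbfa2t2 each, the smallest value that 3 libraries against 3 can give.

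Over all 5 conditions, *E2f2* ranked 16 of the 11554 genes by limma's F test (F = 32.5, adjusted p = 7.64e-12), where 4.54% of the genes had an adjusted p under 0.05. None of the other 7 members passed. *E2f4* came next among them (limma adjusted p = 0.261), the only one with an unadjusted p under 0.05 (0.038). *E2f2* was highest in sgCbfa2t3, followed by sgControl, sgLmo2, sgCbfa2t2 and sgZbtb1. Of the neighbours in this order, only sgCbfa2t3 and sgControl differed past the adjusted threshold. The difference between sgCbfa2t2 and sgZbtb1 (limma adjusted p = 0.291, with 2.27% of genes passing) and that between sgLmo2 and sgCbfa2t2 (limma adjusted p = 0.742, with 0.234% passing) did not.

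Compared with each other, the libraries labelled sgCbfa2t2 and sgCbfa2t3, whose target genes are paralogs, differed more in *E2f2* than in any other gene by p-value. *E2f2* was lower in sgCbfa2t2 (log2 fold change -1.27, SE 0.15, limma adjusted p = 5.02e-08), and 9 genes (0.0779%) passed in that comparison. In sgZbtb1 against sgCbfa2t3 the log2 fold change of *E2f2* was -1.61 (limma adjusted p = 2.09e-12, rank 3), with 1.13% of genes passing. The mean in sgLmo2 was 0.497 times that in sgCbfa2t3 (limma adjusted p = 5.47e-06, rank 13), with 0.736% passing. These 3 differences of *E2f2* also met the study's thresholds (unadjusted p under 0.05, absolute log2 fold change above 1 and above 10 TPM), as did 0.199%, 0.71% and 0.632% of all genes in the same order. *E2f2* was higher in sgLmo2 than in sgZbtb1 (log2 fold change 0.61, limma adjusted p = 0.00565), with 5.06% passing. These comparisons share libraries with those against sgControl and with each other.

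Among the 8 E2F genes, *E2f2* was the one with a limma adjusted p under 0.05 against sgControl in sgCbfa2t3 (1 higher, where 0.13% of all genes were higher and 0.407% lower). It was also the one in sgZbtb1 (1 lower, where 1.85% of all genes were higher and 2.94% lower). Without adjustment, 17.6% of all genes had a p under 0.05 in sgZbtb1, where 2 members did, and 10.6% in sgCbfa2t3, where 1 did. With sgLmo2 no member passed in limma, edgeR or DESeq2, and 1 had an unadjusted p under 0.05 in limma, where 0.0173% of genes passed the adjusted and 5.65% the unadjusted threshold. With sgCbfa2t2 no member passed in limma, edgeR or DESeq2, and 2 had an unadjusted p under 0.05 in limma, against 0.147% and 9.56% of all genes. No E2F gene met the study's thresholds against sgControl in any of the 4 comparisons, which 0.658% of genes did in sgCbfa2t3, 1.66% in sgZbtb1, 0.502% in sgCbfa2t2 and 0.234% in sgLmo2.

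**Figure D4:**
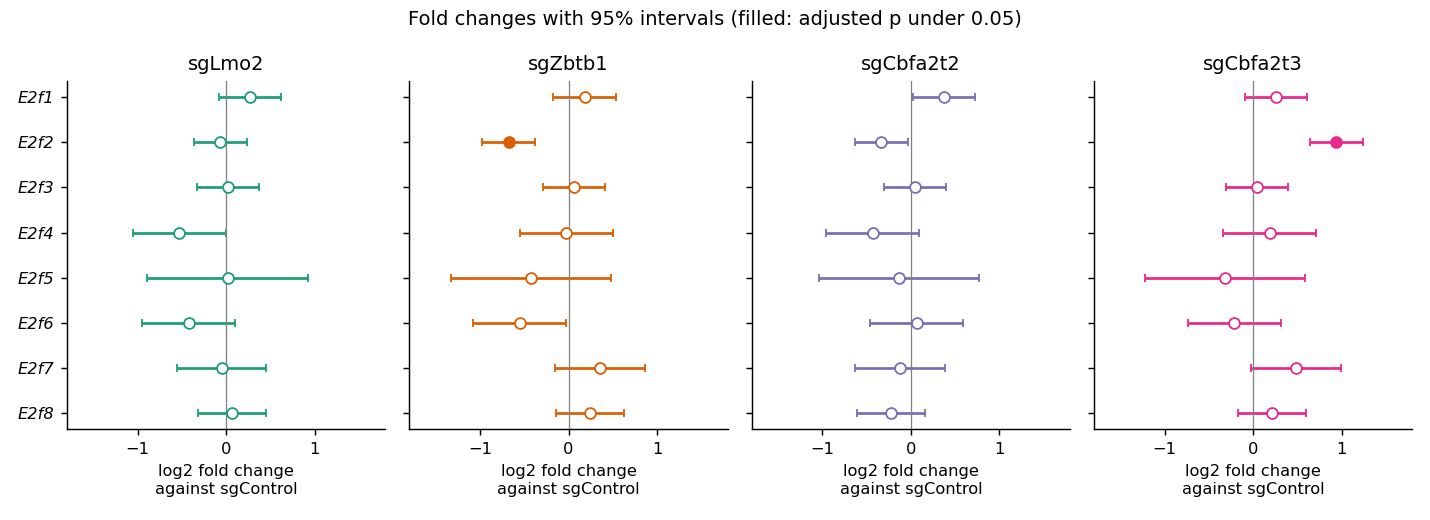
Log2 fold change against sgControl (horizontal axis) of the 8 E2F genes (rows) in the libraries labelled with each of the 4 gene-targeting sgRNAs (panels), with 95% intervals from limma and filled points for an adjusted p under 0.05. The filled points are *E2f2* at -0.68 in sgZbtb1 and at 0.94 in sgCbfa2t3.

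Neither of the other classical activators passed the threshold in any comparison with sgControl. *E2f3* (ENSMUSG00000016477, chr13:29906575-29986063, minus strand) averaged 50.6 to 52.9 TPM over the 5 conditions, with single libraries between 43.4 and 62.6 TPM. Its 95% intervals against sgControl lay within -0.33 and 0.41 in all 4 comparisons. *E2f3* had a limma adjusted p of 0.999 over the conditions, and its coefficient of variation of 10.9% over the 15 libraries was the lowest of the family.

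*E2f1* (ENSMUSG00000027490, chr2:154559407-154569892, minus strand) was at 63.3, 44.0 and 35.8 TPM in sgControl, the widest spread of any of its conditions. In the libraries labelled sgCbfa2t2 it was at 64.4, 64.9 and 53.1 TPM, which overlapped sgControl. Its mean there was 60.8 ± 6.65 TPM against 47.7 ± 14.1 TPM in sgControl (SD, n = 3 each; log2 fold change 0.38, SE 0.18, limma adjusted p = 0.482). In sgLmo2-labelled libraries *E2f1* measured 54.3, 56.7 and 57.5 TPM, in sgZbtb1 52.5, 47.8 and 58.4 TPM and in sgCbfa2t3 53.1, 53.7 and 60.9 TPM. All of these lay inside the range of the sgControl libraries.

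Taken as a sum, the 8 E2F genes reached 391 to 420 TPM in the libraries labelled sgCbfa2t3 and 303 to 315 TPM in sgControl, and 283 to 314 TPM in the other 3 conditions. *E2f2* made up 36.4% to 37.8% of that sum in sgCbfa2t3, 24.5% to 26.4% in sgControl and 13.4% to 18.9% in sgZbtb1. Without *E2f2*, the other 7 genes summed to 255 ± 10.3 TPM in sgCbfa2t3, 231 ± 2.18 TPM in sgControl and 242 ± 16.1 TPM in sgZbtb1 (SD, n = 3 each). In bulk libraries such as these, more cells of 1 kind or cycle phase and more mRNA per cell cannot be told apart.

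*E2f4* (ENSMUSG00000014859, chr8:105297663-105305370, plus strand), the more abundant of the pocket-bound repressors, was at 28.5, 28.9 and 20.5 TPM in sgControl. In sgLmo2-labelled libraries it measured 15.3, 23.5 and 14.8 TPM, where 1 library lay within the sgControl range. In those labelled sgCbfa2t2 *E2f4* was at 20.2, 16.2 and 20.3 TPM, just below every sgControl library. Its log2 fold change was -0.53 in sgLmo2 (SE 0.26, limma adjusted p = 0.868) and -0.43 in sgCbfa2t2 (SE 0.26, limma adjusted p = 0.646). *E2f4* was at 17.3, 30.1 and 30.4 TPM in sgZbtb1 and at 31.1, 32.5 and 24.9 TPM in sgCbfa2t3, both overlapping sgControl. Its F test over the conditions is the one named above that passed only without adjustment.

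*E2f5* (ENSMUSG00000027552, chr3:14578641-14606309, plus strand), the other pocket-bound repressor, was the rarest member. It averaged 5.90 TPM, between 2.87 and 12.6 TPM in single libraries, which were 6 to 23 reads. Its log2 fold changes had an SE of 0.45, the largest of the family. The 95% intervals ran from -1.33 to 0.92 over the 4 comparisons, so that moderate changes of *E2f5* could be missed at this depth.

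*E2f6* (ENSMUSG00000057469, chr12:16810963-16839742, plus strand), the Polycomb-associated member, was at 31.4, 22.6 and 28.1 TPM in sgControl and at 14.5, 15.8 and 26.0 TPM in sgZbtb1-labelled ones. The first pair of sgZbtb1 libraries lay below all sgControl libraries and the third among them. Its log2 fold change there was -0.55 (SE 0.26, limma adjusted p = 0.252). It was at 23.2, 21.5 and 15.9 TPM in sgLmo2, at 21.3, 32.0 and 33.8 TPM in sgCbfa2t2 and at 19.8, 22.8 and 27.7 TPM in sgCbfa2t3, each overlapping sgControl.

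*E2f7* (ENSMUSG00000020185, chr10:110745439-110787384, plus strand), an atypical repressor that is itself switched on in S phase, was at 20.9, 25.5 and 20.5 TPM in sgControl. In sgCbfa2t3-labelled libraries it measured 35.9, 33.7 and 25.5 TPM, and it was at 26.8, 31.6 and 28.0 TPM in those labelled sgZbtb1. Both sets lay above all sgControl libraries, in sgCbfa2t3 by a margin of 25.481 over 25.466 TPM for the closest pair of *E2f7* values. Groups of 3 libraries did not overlap for 15.8% of all genes in sgCbfa2t3 and 22.9% in sgZbtb1. *E2f7* did not pass the adjusted threshold, with log2 fold changes of 0.48 in sgCbfa2t3 (SE 0.25, limma adjusted p = 0.504) and 0.36 in sgZbtb1 (SE 0.25, limma adjusted p = 0.499). In sgLmo2 *E2f7* was at 15.8, 20.0 and 30.7 TPM, and in sgCbfa2t2 at 24.5, 21.5 and 15.9 TPM, around the sgControl values.

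*E2f8* (ENSMUSG00000046179, chr7:48866429-48881596, minus strand), its paralog, was at 34.3, 50.4 and 67.4 TPM in sgControl, a range that held all but 1 of the other 12 libraries. The exception, at 30.9 TPM, was labelled sgCbfa2t2, where the others were at 44.9 and 52.2 TPM. *E2f8* was at 57.1, 51.3 and 45.5 TPM in sgLmo2, at 61.5, 51.2 and 61.9 TPM in sgZbtb1 and at 54.7, 54.8 and 61.5 TPM in sgCbfa2t3. Its log2 fold changes against sgControl ran from -0.22 to 0.24, and none passed the adjusted threshold.

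On this TPM scale, which is not divided by length because reads come from the 3′ ends, the family fell into 3 tiers. *E2f2* averaged 82.5 TPM over the 15 libraries, *E2f1* 54.7, *E2f3* 52.1 and *E2f8* 52.0 TPM. *E2f7* at 25.1, *E2f6* at 23.8 and *E2f4* at 23.6 TPM followed, with *E2f5* at 5.90 TPM last. In the libraries labelled sgZbtb1, *E2f2* lost the first place, with a mean of 48.7 TPM beside 58.2 TPM for *E2f8*, 52.9 TPM for *E2f1* and 52.9 TPM for *E2f3*.

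Apart from *E2f2*, peaks with an E2F gene named as the nearest gene were in the Cbfa2t3 list alone and scored near or below its median of 33.2. At *E2f4*, the Cbfa2t3 peak chr8:105298783-105299161 had a score of 39.0, at rank 2397 of 6077, and lay 1.31 kb after the start site. The list annotates it as intron 3 of 9, and it overlapped exonic and coding sequence in GENCODE. A second Cbfa2t3 peak (score 26.2) lay inside *E2f4*, 7.08 kb after its start, and was assigned by the list to the neighbouring gene *Elmo3*. A Zbtb1 peak (chr8:105296211-105296581, score 16) lay 1.27 kb before the start of *E2f4*. The list names no gene for it, and its nearest promoter, 283 bases away, belongs to *Exoc3l* in RefSeq. At *E2f1*, the Cbfa2t3 peak chr2:154568983-154569361 had a score of 26.3, at rank 4251, and lay over the first exon of one transcript, 254 bases after its start. Windows of 200 bases at the centres of the *E2f4* and *E2f1* peaks held the E box CAGNTG, searched on both strands and added after peak sequences had been read, which was present in 83.2% of such windows at Cbfa2t3 peaks and 39.3% at Zbtb1 peaks. The Runx core TGTGGT was in that of *E2f4* alone, and in 43.7% and 41.3% of the windows. The E2F core TTNNCGC was in that of *E2f1* alone, and in 9.39% of the windows at Cbfa2t3 peaks and 18.0% at Zbtb1 peaks. A match describes the letters and not binding by a factor.

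No peak of either factor lay within 100 kb of *E2f3*, *E2f5* or *E2f7*. Around *E2f6*, the nearest of 2 Zbtb1 peaks was 68.6 kb past its start, and there was no Cbfa2t3 peak. Around *E2f2*, further peaks of both factors, some overlapping, were assigned to other genes. A Zbtb1 peak without a named gene (score 112.1) lay 96.7 kb past the start of *E2f2*. Around *E2f8*, the nearest Cbfa2t3 peak (score 23.6) lay 27.5 kb upstream without a named gene, and its nearest promoter in RefSeq is that of *E2f8* itself. Counted in this way, which was tried after the peaks were seen, 4 Cbfa2t3 peaks in place of 3 belonged to E2F genes, and still 1 Zbtb1 peak. Farther upstream of *E2f8*, a Zbtb1 peak (score 57.9) and a Cbfa2t3 peak (score 82.2) lay about 56.1 and 56.2 kb away, both with *Nav2* as the nearest gene, and another Zbtb1 peak (score 16) lay 92.5 kb past its start. By the genes named in the lists, 26.8% of all genes tested were nearest to at least 1 Zbtb1 peak and 20.5% to a Cbfa2t3 peak, beside 1 of 8 (12.5%) and 3 of 8 (37.5%) in the E2F family. The protein-coding neighbours of *E2f2* within 50 kb of the shared peak were *Id3*, at a mean of 0.637 TPM, and *Asap3*, at 0. *E2f2* was thus the one protein-coding gene expressed above 1 TPM in this window, and noncoding genes were not looked up.

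The partners and regulators of E2F proteins were then read from lists of genes. Of 5 pocket proteins and DP partners, none passed the adjusted threshold in limma, edgeR or DESeq2 in any comparison, and 1 had an unadjusted p under 0.05 in limma, *Rbl1* (p107) in sgLmo2, where 5.65% of all genes did. *Rbl1* was at 37.5 TPM on average there and 50.1 TPM in sgControl (log2 fold change -0.41, limma adjusted p = 0.864). *Rb1*, which encodes the retinoblastoma protein, averaged 21.7 TPM in sgControl and 30.8 TPM in sgCbfa2t3 (log2 fold change 0.49, limma adjusted p = 0.482). Of 5 MuvB genes, whose products join *E2f4* and p130 in the DREAM repressor complex, none passed in limma, edgeR or DESeq2. None had an unadjusted p under 0.05 in limma, where between 5.65% (sgLmo2) and 17.6% (sgZbtb1) of all genes did. *Lin9* was at 38.6 TPM in sgCbfa2t2 and 30.3 TPM in sgControl (limma adjusted p = 0.676), and *Lin54* at 29.8 TPM in sgZbtb1 and 36.3 TPM in sgControl (limma adjusted p = 0.602).

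Of the 9 tested cyclins and kinases of G1 and S phase (10 listed), 1 rose in the libraries labelled sgCbfa2t3 with a limma adjusted p under 0.05, where 0.13% of all genes were higher and 0.407% lower. This was *Ccnd2*, which encodes cyclin D2, a partner of the kinases that phosphorylate pocket proteins. *Ccnd2* rose from a mean of 1130 to 1578 TPM (log2 fold change 0.48, SE 0.08, limma adjusted p = 0.000116), and passed with each of the 6 libraries left out (highest limma adjusted p = 0.0104). It was also the nearest gene of a Cbfa2t3 peak, as were 4 of the 9 (44.4%, beside 20.5% of all genes tested), and 5 of the 9, without *Ccnd2*, were nearest to a Zbtb1 peak (55.6%, beside 26.8%). *Ccne2* (cyclin E2) averaged 80.5 TPM in sgControl and 102 TPM in sgCbfa2t3 (limma adjusted p = 0.366), and *Ccne1* at 49.9 TPM in sgZbtb1 and 39.6 TPM in sgControl (limma adjusted p = 0.362). The median log2 fold change of the 9 genes was 0.23 in sgCbfa2t3 and 0.17 in sgZbtb1, beside -0.01 and -0.03 over all genes tested.

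Among 7 inhibitors of cyclin-dependent kinases, 2 passed in the libraries labelled sgZbtb1, in opposite directions, where 1.85% of all genes were higher and 2.94% lower. *Cdkn1a*, which encodes p21, rose from 491 to 678 TPM (log2 fold change 0.46, SE 0.09, limma adjusted p = 0.000496). *Cdkn1b*, which encodes p27, fell from 49.5 to 32.4 TPM (log2 fold change -0.60, SE 0.19, limma adjusted p = 0.0499), just inside the threshold. *Cdkn1b* did not pass in edgeR or DESeq2, nor with median-of-ratios scaling, whereas *Cdkn1a* did in all 3. With each of the 6 libraries left out in turn, *Cdkn1a* passed each time (highest limma adjusted p = 0.0109) and *Cdkn1b* in no case (limma adjusted p 0.0716 to 0.186), with log2 fold changes of *Cdkn1b* between -0.65 and -0.52. *Cdkn1a* was named as the nearest gene of a Cbfa2t3 peak and not of a Zbtb1 peak, and *Cdkn1b* of neither. The summed level of the 7 inhibitors was 786 to 876 TPM in sgZbtb1 and 640 to 671 TPM in sgControl. No inhibitor passed in the other 3 comparisons in limma, edgeR or DESeq2, where 2 of the 7 in sgCbfa2t3, 1 in sgLmo2 and none in sgCbfa2t2 had an unadjusted p under 0.05 in limma, beside 10.6%, 5.65% and 9.56% of all genes.

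The list of 38 genes that E2F proteins are known to activate for DNA synthesis had all of its members tested. In the libraries labelled sgZbtb1, 1 (2.63%) rose, beside 1.85% of all genes higher and 2.94% lower, and none fell. *Rpa2*, which encodes a subunit of the single-strand binding protein, rose there from 231 to 292 TPM (log2 fold change 0.34, SE 0.10, limma adjusted p = 0.0291), and passed in edgeR and DESeq2 too. *Rpa2* did not pass when any 1 of the 6 libraries was left out (limma adjusted p 0.0588 to 0.116), although its log2 fold change stayed between 0.31 and 0.36. It was 1 of 13 of the 38 genes named as nearest to a Zbtb1 peak (34.2%, beside 26.8% of all genes tested). *Tyms* (thymidylate synthase) was at 43.3 TPM in sgZbtb1 and 59.9 TPM in sgControl (log2 fold change -0.47, limma adjusted p = 0.119). *Pole2*, a DNA polymerase subunit, was at 17.6 TPM in sgLmo2 and 27.2 TPM in sgControl (log2 fold change -0.65, limma adjusted p = 0.849).

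In the libraries labelled sgCbfa2t3, where *E2f2* was highest, none of the 38 target genes passed in limma, edgeR or DESeq2, and 3 had an unadjusted p under 0.05 in limma, all higher, beside 10.6% of all genes in either direction. Of the 38, 27 had a log2 fold change above 0 there, with a median of 0.12 beside -0.01 over all genes. In sgZbtb1, where *E2f2* was lowest, 27 of 38 were also above 0, with a median of 0.09 beside -0.03 over all genes. The summed level of the list was 5747 to 5956 TPM in sgCbfa2t3, 5762 to 6044 TPM in sgZbtb1 and 5450 to 5556 TPM in sgControl. With sgCbfa2t2, 25 of 38 were above 0, with a summed level of 5703 to 6020 TPM, and none passed in limma, edgeR or DESeq2 (7 at an unadjusted p under 0.05 in limma, beside 9.56% of all genes). With sgLmo2, 21 of 38 were above 0, at 5390 to 5642 TPM, and none passed in limma, edgeR or DESeq2 (2 at an unadjusted p under 0.05 in limma, beside 5.65%).

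Of 20 genes of G2 and mitosis, none passed in limma, edgeR or DESeq2 in any comparison, and 5 in sgZbtb1 and 4 in sgCbfa2t3 had an unadjusted p under 0.05 in limma, all higher, beside 17.6% and 10.6% of all genes in either direction. In sgCbfa2t2 1 was lower at that threshold, beside 9.56% of all genes, and in sgLmo2 none was. Log2 fold changes above 0 were found for 18 of the 20 in sgCbfa2t3 (median 0.13, beside -0.01 over all genes), 12 in sgZbtb1 (0.05 beside -0.03), 11 in sgCbfa2t2 (0.06 beside 0.0049) and 9 in sgLmo2 (-0.03 beside 0.01). *Aurka*, a mitotic kinase, was at 97.2 TPM in sgZbtb1 and 76.5 TPM in sgControl (limma adjusted p = 0.218), and *Foxm1*, a factor of late cycle genes, at 44.8 and 57.7 TPM (limma adjusted p = 0.322).

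**Figure D5:**
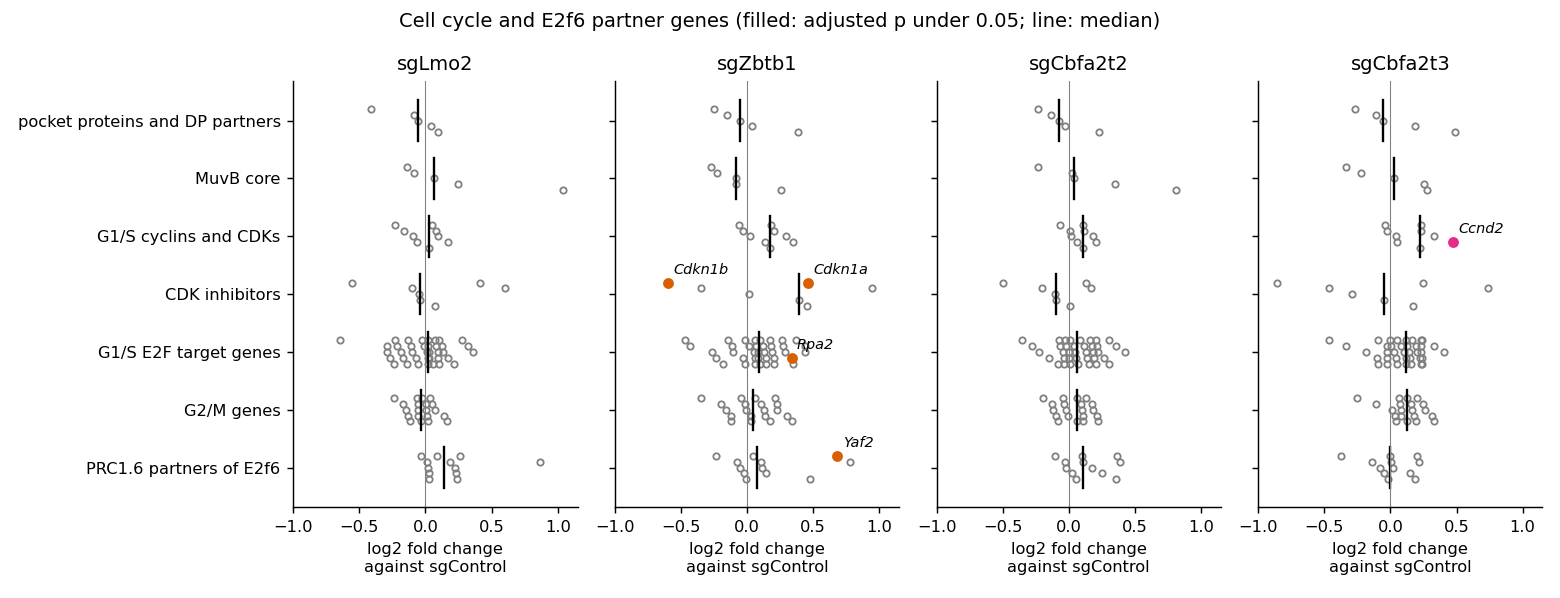
Log2 fold change against sgControl (horizontal axis) of the tested genes of 7 lists (rows) in the libraries labelled with each gene-targeting sgRNA (panels), with black lines for list medians and filled, named points for an adjusted p under 0.05. The named points are *Cdkn1a*, *Cdkn1b*, *Rpa2* and *Yaf2* in sgZbtb1 and *Ccnd2* in sgCbfa2t3.

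Of 12 genes for proteins of the Polycomb complex that E2f6 joins, 1 rose in the libraries labelled sgZbtb1, beside 1.85% of all genes higher and 2.94% lower. *Yaf2*, which encodes a Ring1 and YY1 binding protein, rose from 44.8 to 73.2 TPM (log2 fold change 0.68, SE 0.19, limma adjusted p = 0.019), and passed in edgeR and DESeq2 too. *Yaf2* did not pass without sgControl replicate 1 or 3 or sgZbtb1 replicate 1 or 2 (highest limma adjusted p = 0.119), with log2 fold changes between 0.58 and 0.86 over the 6 fits. It was among 4 of the 12 genes named as nearest to a Zbtb1 peak (33.3%, beside 26.8% of all genes tested). *L3mbtl2*, which encodes a defining subunit, was at 75.9 TPM in sgZbtb1 and 54.5 TPM in sgControl (limma adjusted p = 0.0942). *Hdac1* was at 134 TPM in sgCbfa2t2 and 105 TPM in sgControl (limma adjusted p = 0.303). The 6 germline genes that E2f6 is known to keep silent did not enter the fit, as 4 were at 0 in every library and the summed level of the 6 reached at most 1.47 TPM, about the floor.

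Markers of other cells and of the progenitor state were also read in the libraries in which *E2f2* changed. In sgCbfa2t3 none of these markers passed the adjusted threshold against sgControl, and in sgZbtb1 no stromal or myeloid marker did. In the libraries labelled sgZbtb1, 2 of the 8 tested progenitor markers passed, both lower, beside 2.94% of all genes lower: *Kit* (22.3 to 10.2 TPM, limma adjusted p = 0.0205) and *Ptprc* (476 to 391 TPM, limma adjusted p = 0.0393). With each of the 6 libraries left out, *Kit* passed in 2 cases (highest limma adjusted p = 0.148) and *Ptprc* in 1 (highest limma adjusted p = 0.222), with log2 fold changes of -1.50 to -0.93 for *Kit* and -0.33 to -0.23 for *Ptprc*. Both passed in DESeq2, *Kit* alone in edgeR and with median-of-ratios scaling, and neither with all genes above 0 (limma adjusted p = 0.0782 and 0.0794). In sgCbfa2t3 *Ptprc* was about as low, at 390 TPM on average and below all sgControl libraries, but did not pass (limma adjusted p = 0.131), and in sgCbfa2t2 it averaged 417 TPM (limma adjusted p = 0.473). *Dntt*, which encodes terminal transferase, was at 95.9 to 131 TPM in sgCbfa2t3, above the 71.4 to 85.1 TPM of sgControl (limma adjusted p = 0.102). The 10 progenitor markers summed to 901 to 979 TPM in sgZbtb1 and 1004 to 1107 TPM in sgControl. The 12 OP9 stromal markers summed to 4.42 to 6.14 TPM in sgZbtb1 and 12.2 to 16.3 TPM in sgControl, and 2 of the 12 entered the fit. In sgCbfa2t3 the stromal sum was 8.31 to 12.9 TPM and the progenitor sum 940 to 1081 TPM. The 8 myeloid markers summed to 23.1 to 34.1 TPM in sgZbtb1, 26.6 to 35.4 TPM in sgCbfa2t3 and 23.2 to 26.0 TPM in sgControl, and 3 were at 0 in every library. The sum in sgCbfa2t3 lay above all sgControl libraries. The sort for GFP and hNGFR would remove stromal cells without the vectors. The part of any of these in the *E2f2* values was not tested.

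The genes whose levels were most like those of the 7 members above 10 TPM, that is all but *E2f5*, over the 15 libraries were found among 8156 genes above 10 TPM, by Pearson's r of log2(TPM + 1), as a description. For *E2f2* they were *Armc10* (r = 0.81), *Cbfa2t3* (r = 0.80) and *Pnpla8* (r = 0.80). *Cbfa2t3* mRNA averaged 350 TPM in sgCbfa2t3, 240 in sgCbfa2t2, 190 in sgControl, 173 in sgLmo2 and 166 in sgZbtb1, and thus shared its highest and lowest condition with *E2f2*. The cyclin gene *Ccnb2* (r = 0.85) was close to *E2f7*, after *Frs2* (0.88) and *Mapre2* (0.86). For *E2f4* the first was *Cenpk* (r = 0.87), a centromere gene. For *E2f6* it was *Rbbp4* (0.81), for *E2f8* *Coq7* (0.85), for *E2f1* *Ppa2* (0.82) and for *E2f3* *BC005561* (0.82). These libraries share depth and condition, and the highest of so many r values is large by selection. Between these 7 members, r was lowest for *E2f6* and *E2f7* (-0.59) and for *E2f1* and *E2f8* (-0.56), and highest for *E2f4* and *E2f7* (0.50).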

How the data were processed

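QuantSeq values of 15 libraries (5 conditions with 3 replicates) and the ChIP-seq peak lists of Zbtb1 and Cbfa2t3 were used, grouped by the sample labels. The authors trimmed reads with fastp, mapped them with STAR to mm10, counted them per gene and brought each library to one common total. What the authors deposited as TPM is CPM, as they were not divided by gene length, and whole reads were recovered for at least 99.4% of the values above 0 (tolerance 0.001 TPM). A row without a gene, at most 5.9e-05% of a library, was left out. The authors mapped ChIP reads with Bowtie 1.1.1, called peaks with HOMER, and deposited peaks reproducible in 2 replicates with a normalized peak score of at least 15. The lowest score was 15.0 in the Zbtb1 and 20.6 in the Cbfa2t3 list, and the name of the nearest gene was empty for 7.85% and 7.01% of the peaks. Read depths of the ChIP libraries are not in these lists.

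Genes with a mean above 1 TPM (11554) were tested with limma 3.58.1 (R 4.3.3; eBayes with a trend) on log2(TPM + 1), a pseudocount that understates changes of rare mRNAs, in one fit of all 15 libraries, with two-sided p-values adjusted by Benjamini-Hochberg over all genes. On simulated data for sgZbtb1 with 11554 genes, 181 of 200 changed genes passed, with 17 unchanged ones. The changed genes were drawn from those with more reads, at absolute log2 fold changes of at least 1 and the same dispersion for every gene. The share that passed therefore does not carry over to smaller changes or rarer mRNAs. Exact permutation tests of 3 against 3 cannot go below 0.1. Floors cover counting error only. Alternatives were edgeR 4.0.16 and DESeq2 1.42.0 on the recovered reads, scaling by median of ratios, a term for the replicate number, fits to only the 6 libraries compared, the 0.1 pseudocount, filters at 0 and at 10 TPM, each library left out, and for peaks a score of at least 30, at most 10 kb to the start site or an overlap of at least 50%. On the recovered reads edgeR called 2 genes in sgLmo2, 569 in sgZbtb1, 58 in sgCbfa2t3 and 17 in sgCbfa2t2. Genes named are all E2F genes, the 4 targeted genes, of each list those with an adjusted p under 0.05 (at most 4 per comparison) or, with fewer than 2, the 2 with the largest absolute log2 fold change above 10 TPM, and the 3 genes most like a member. *Id3*, *Asap3*, *Elmo3* and *Nav2* are named as neighbours of peaks, and cell markers at 0 or used to check the cells were named after their values were seen.

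Positions are those of the peak lists (mm10), and sequences were read from GRCm38.p6 with pysam 0.24.0; transcripts and promoters are from RefSeq and gene bounds from GENCODE. The E2F genes and all lists were chosen with earlier results of these data known. The sequence under the *E2f2* peaks is not reported here. The windows of 50 and 100 kb were added after the peaks were seen.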

Additional observations from a re-analysis of the deposited data

How the results depend on the processing

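The limma calls of *E2f2* against sgControl held under every alternative run, and its F test and comparisons between sgRNAs were not rerun. In sgCbfa2t3 the log2 fold change stayed between 0.90 and 0.99 with each library left out (highest adjusted p 0.00191) and between 0.94 and 0.96 otherwise (highest adjusted p 0.00385). In sgZbtb1 it stayed between -0.75 and -0.55 with each library left out (highest adjusted p 0.0484) and between -0.69 and -0.66 otherwise. No other E2F gene passed under any alternative run, but log2 fold changes near 0 changed sign. *E2f5* in sgLmo2 went to -0.013 with a pseudocount of 0.1, and *E2f4* in sgZbtb1 to 0.030 in edgeR and 0.024 in DESeq2. With each library left out, values in sgLmo2 ran from -0.12 to 0.023 for *E2f2*, -0.084 to 0.12 for *E2f3*, -0.42 to 0.48 for *E2f5*, -0.30 to 0.15 for *E2f7* and -0.19 to 0.29 for *E2f8*. In sgZbtb1 they ran from -0.0011 to 0.40 for *E2f1*, -0.18 to 0.23 for *E2f4* and -0.0083 to 0.47 for *E2f8*. In sgCbfa2t2 they ran from -0.048 to 0.13 for *E2f3*, -0.060 to 0.27 for *E2f6*, -0.25 to 0.045 for *E2f7* and -0.47 to 0.0039 for *E2f8*. In sgCbfa2t3 they ran from -0.081 to 0.18 for *E2f3* and -0.034 to 0.44 for *E2f8*. The cause of these sign changes was not tested. The 4 listed cell cycle and Polycomb genes called in sgZbtb1 became 1 with all genes above 0 and 1 to 2 with each library left out, and *Cdkn1a* passed each time. Over all genes, calls went to 24 in sgCbfa2t3, 330 in sgZbtb1 and 0 in sgCbfa2t2 with all genes above 0, and to 5 in sgLmo2 and 43 in sgCbfa2t2 with the 6 libraries alone. With 1 library left out, calls over all genes ran from 26 to 59 in sgCbfa2t3 (lowest without sgControl replicate 2, and 27 and 30 without sgControl replicate 3 and sgCbfa2t3 replicate 1), from 306 to 460 in sgZbtb1 (lowest without sgZbtb1 replicate 3, and also 351 and 332 without sgControl replicates 2 and 3), from 2 to 26 in sgCbfa2t2 (2 without sgControl replicate 3 or sgCbfa2t2 replicate 2, 6 without sgControl replicate 2 and 26 without sgCbfa2t2 replicate 3) and from 1 to 5 in sgLmo2. With a mean above 10 TPM *E2f5* left the fit, and its 6 to 23 reads limit what could be seen of it. Of the 3 Cbfa2t3 peaks at E2F genes, 2 had a score of at least 30 (*E2f1* was lost) and all 3 lay within 10 kb of a start site, and the *E2f2* peak of Zbtb1 met both limits. The overlap at *E2f2* covered over 50% of each peak.

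Replicates are numbered 1 to 3 in the labels, but deviations of libraries with the same number correlated by 0.0279 on average, beside -0.0139 for different numbers, so that the numbers were not read as pairs. With the replicate block, *E2f2* remained called in sgCbfa2t3 and sgZbtb1 and the number of E2F genes called did not change. Calls over all genes rose from 62 to 93 in sgCbfa2t3, from 554 to 709 in sgZbtb1, from 17 to 36 in sgCbfa2t2 and from 2 to 14 in sgLmo2.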
